A study of Homo sapiens with 27 samples.

Results

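The genes described here were 20 cytosolic aminoacyl-tRNA synthetase genes and 13 genes of the ATF4 stress response, 33 of the 58233 genes in the gene tables. They were selected by gene name, from a list drawn up with earlier results of these data known. The cells were HL-60, an established human promyelocytic leukaemia line, and the series held 27 libraries, 1 per group and no replicates, so each ratio compares single libraries and carries no test. Newly made (nascent) RNA was sequenced from cells given 100 µM DRB, from cells given 0.8 µM actinomycin D (ActD), from cells given the vehicle DMSO and from untreated cells, and total RNA from untreated cells. DRB inhibits the kinase that releases RNA polymerase II into elongation, and ActD intercalates into DNA and blocks transcription. No source used here gives how long the cells were treated. ChIP peaks, from chromatin immunoprecipitation, mark where H2A.Z, a variant histone, and acH2A.Z, H2A.Z that carries acetyl groups, sat under DRB, ActD and DMSO, and also in cells labelled siMyc and siNTC for their small interfering RNA. RIP, the same pull-down read out as RNA, used antibodies to acH2A.Z, H2A.Z and the acetyltransferase Tip60 in cells with no treatment in their labels.

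An aminoacyl-tRNA synthetase joins an amino acid to its tRNA, so each protein-coding codon depends on these enzymes. When amino acids run short or proteins misfold, kinases phosphorylate the translation factor eIF2. General translation then falls while the messenger RNA of the transcription factor ATF4 is translated more. ATF4 raises genes of amino acid synthesis and transport, many cytosolic synthetases, and genes such as DDIT3, CHAC1 and TRIB3, and it binds a composite element shared with C/EBP proteins.

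The nascent libraries held 14339264 expected counts under DRB, 12600067 under ActD and 14426368 under DMSO, and 25167597 in untreated cells, and total RNA held 12679342. Mitochondrially encoded genes took 66.5% of counts under DRB, 56.9% under ActD and 45.9% under DMSO, against 0.560% in untreated nascent RNA, and the part of this difference in the ratios was not tested. All levels are therefore CPM, counts scaled to the same total per library over the other genes. Of 9 promyelocytic markers 8 stood at 1 CPM or more in all 5 RNA libraries. Of 11 markers of other blood, epithelial and connective tissue cells 0 did, and 9 were under 1 CPM in all 5. In these bulk libraries fewer cells of a kind and less RNA per cell cannot be told apart.

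The composite element was looked for first, since its letters define what ties many of these genes to ATF4. Promoters of 250 bases before to 50 bases after the start came from the RefSeq table on GRCh38.p14, which matched 28 of the 33 genes (16 synthetases and 12 stress genes). LARS, VARS, YARS and SHMT2 were among those without a match. The core TGATGCAA, on either strand, lay in 6 of 16 synthetase promoters and in 1 of 12 stress gene promoters, against 0.669% of 15843 protein-coding promoters. The looser core TGATGNAA, which includes the first, added ASNS and lay in 2.53% of protein-coding promoters. The cyclic AMP response element TGACGTCA was found in 0 of the 28 promoters, against 2.59%. Each match is given on the strand of its gene within 30 bases, 5′ to 3′, and the capitals mark the core or its reverse complement.
AARS: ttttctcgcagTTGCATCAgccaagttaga
CARS: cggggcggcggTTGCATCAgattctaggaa
IARS: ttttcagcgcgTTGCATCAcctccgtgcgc
MARS: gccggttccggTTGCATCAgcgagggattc
NARS: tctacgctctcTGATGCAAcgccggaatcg
TARS: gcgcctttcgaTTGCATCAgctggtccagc
CHAC1: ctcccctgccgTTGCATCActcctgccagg
ASNS: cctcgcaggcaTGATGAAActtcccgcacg

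Counted from the start as +1, the core began at -187 in AARS, -2 in CARS, -13 in IARS, -4 in MARS, +15 in NARS and +3 in TARS, so that 5 of the 6 synthetase matches sat within 20 bases of the start. In CHAC1 it began at -209 and in ASNS at -68. On GRCh38.p14 the windows lie at chr16:70289675-70289704 for AARS, chr11:3057407-3057436 for CARS, chr9:92293692-92293721 for IARS, chr18:57621804-57621833 for NARS and chr7:97872458-97872487 for ASNS, all on the minus strand. Those on the plus strand lie at chr12:57488053-57488082 for MARS, chr5:33440956-33440985 for TARS and chr15:40953251-40953280 for CHAC1. In all synthetases shown but NARS the core ran in reverse complement. A match of letters is a description and not a binding site, and a window without a match says nothing of the factor.

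In untreated cells the members' nascent RNA stood close to their total RNA. All 33 stayed within 2-fold, with log2 ratios of nascent over total RNA between -0.89 for ASNS, the asparagine synthetase, and 0.92 for VARS, the valyl-tRNA synthetase. Of all 13968 genes tested, 9.49% passed 2-fold upwards and 17.8% downwards. The direction of single members turned with the library scale here, since 12 of 20 synthetases and 10 of 13 stress genes kept 1 sign on 6 scales, namely this one and 5 others (mitochondrial genes in the total, RNA polymerase III genes left out, centring on the median gene, TMM and size factors). Here and below a log2 ratio has 1 CPM added to both levels, and "higher" and "lower" are used of a difference of at least 2-fold. Each ratio is relative to the other RNA of its library, so a loss shared by all genes would not show.

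Per kilobase of effective length, ATF4 led the stress genes in all 5 libraries, with 345 CPM per kb under DRB, 1632 under ActD and 561 under DMSO, and 259 CPM per kb in nascent and 322 in total RNA of untreated cells. FARSB, a subunit of phenylalanyl-tRNA synthetase, was the lowest synthetase in each, at 2.40 CPM per kb under DRB, 8.17 under ActD and 7.59 under DMSO, and 3.48 CPM per kb in nascent and 3.02 in total RNA of untreated cells. The effective lengths in the tables moved by 2-fold or more between ActD and DMSO for FARSA, IARS, VARS and MTHFD2, each shorter under ActD, so the order of other genes per kilobase is not given. DMSO nascent RNA already differed from untreated nascent RNA. Of the synthetases 12 of 20 were higher and 0 lower in DMSO, and of the stress genes 8 of 12 measured were higher and 0 lower. Among all 14252 genes tested these shares were 46.2% and 14.7%, and the median log2 ratio was 0.87. With mitochondrial genes kept in the total 6 synthetases were higher and 1 lower. Both drugs are therefore set against DMSO alone, and the 2 comparisons share that library.

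**Figure D1:**
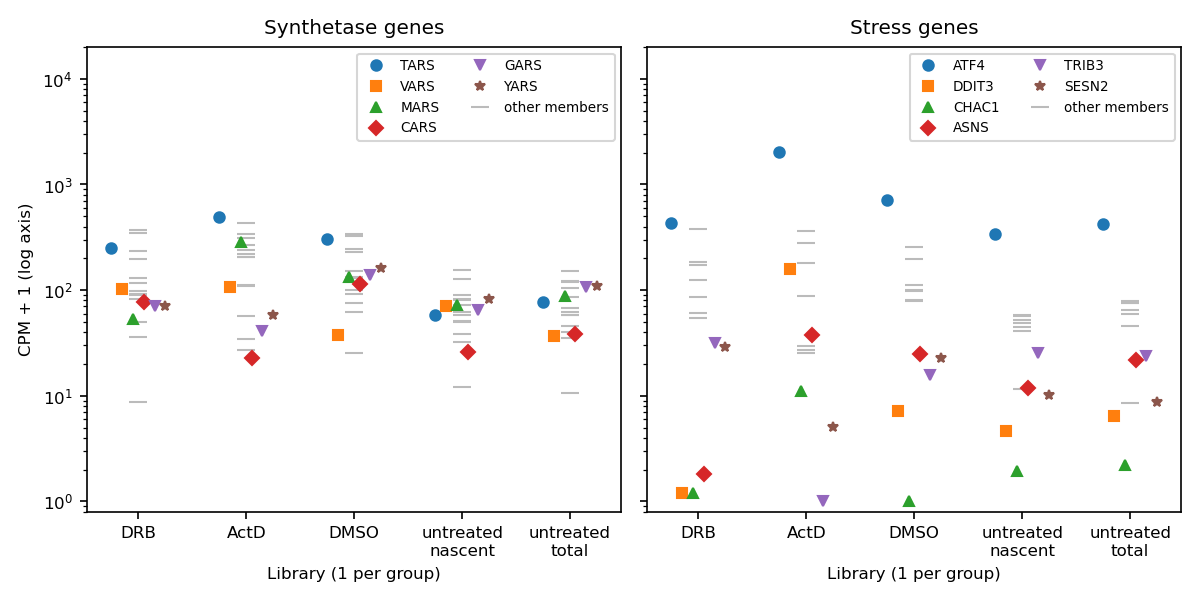
Levels of 19 of the 20 synthetase genes (left) and the 13 stress genes (right) in the 5 RNA libraries, as CPM + 1 on a log axis, with 6 genes per panel marked and the others as grey bars. DDIT3 and CHAC1 stand higher under ActD than in the other 4 libraries, ASNS and DDIT3 lie near the bottom under DRB, and TRIB3 is at 0 under ActD.

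Under DRB most members stayed within 2-fold of DMSO, and the stress genes were split. ASNS and DDIT3 fell to a few counts, while VARS, PSAT1 and TRIB3 were higher than in DMSO. Of 20 synthetases 1 was higher and 5 were lower. Of the 12 stress genes measured 2 were higher and 3 lower. Among all 12919 genes tested the shares were 15.6% higher and 47.0% lower. The median log2 ratio was -0.43 for synthetases, though above 0 on 3 of the other scales, 0.00 for stress genes and -0.83 for all genes. Low-level genes had lower ratios: over all genes the median was -0.15 at a mean of 100 to 300 CPM, where 11 synthetases had a median of -0.28, and -2.08 at 1 to 10 CPM. The split depended on the scale of the library. With mitochondrial genes kept in the total, 10 synthetases were lower and 0 higher, and after centring on the median gene 0 were lower and 6 higher, against 34.5% lower and 29.2% higher among all genes.

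ASNS makes asparagine and is a standard readout of ATF4. It had 0.832 CPM (4 counts) under DRB, 36.8 CPM (200 counts) under ActD and 23.8 CPM (186 counts) under DMSO, with 10.9 CPM in untreated nascent and 21.0 CPM in total RNA. DRB was the sole library in which it nearly disappeared. The log2 ratio of DRB over DMSO was -3.76 [-6.73, -3.46], where brackets hold an exact 95% interval for the counts' ratio before 1 CPM is added, which covers counting error only and can leave out the value. DDIT3, which encodes the pro-apoptotic factor CHOP, had 0.208 CPM (1 count) under DRB, 157 CPM (854 counts) under ActD and 6.15 CPM (48 counts) under DMSO. In untreated cells it had 3.60 CPM in nascent and 5.48 CPM in total RNA. Its DRB over DMSO ratio was -2.57 [-10.22, -2.34]. ASNS and DDIT3 were lower in DRB on each of 6 scales of the library. Losses of this kind were frequent among low counts. Of 1032 genes with 40 to 60 counts in DMSO, as DDIT3 had, 59.2% had at most 4 counts under DRB, and of 2045 genes with 100 to 200 counts, as ASNS had, 24.1%. With 186 counts ASNS lay near the top of its class, and of 2167 genes with 200 to 400 counts the share was 8.08%.

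The other stress factors moved less. ATF4 had 433 CPM under DRB, 2041 CPM under ActD and 712 CPM under DMSO, and 337 CPM in untreated nascent and 421 CPM in total RNA. Its log2 ratio of DRB over DMSO was -0.72 [-0.79, -0.64], within 2-fold, and it changed sign between scales, from -1.40 to 0.11. CEBPG, which pairs with ATF4 as a dimer partner, had 53.0 CPM under DRB, 28.9 CPM under ActD and 111 CPM under DMSO, with 39.8 CPM in untreated nascent and 58.7 CPM in total RNA. It was lower in DRB at -1.05 [-1.27, -0.86], by 2-fold on 2 of the 6 scales. TRIB3, a pseudokinase that feeds back on ATF4, had 30.8 CPM (148 counts) under DRB, 0 CPM under ActD and 14.6 CPM (114 counts) under DMSO, with a ratio of 1.03 [0.71, 1.44]. TRIB3 passed 2-fold in DRB on 5 of the 6 scales. In untreated cells it had 24.1 CPM in nascent and 22.9 CPM in total RNA, so the DMSO value was the lowest after that of ActD. CHAC1, which degrades glutathione, had 1 count under DRB and 0 counts under DMSO and was not measured in this comparison.

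Of the 4 serine and one-carbon enzymes 1 was higher and 0 lower under DRB. PSAT1, which makes phosphoserine, had 173 CPM under DRB, 87.2 CPM under ActD and 78.0 CPM under DMSO, a ratio of 1.14 [1.00, 1.31] that passed 2-fold on 5 of the 6 scales. In untreated cells it had 10.5 CPM in nascent and 7.46 CPM in total RNA, the widest gap to DMSO of all members. PHGDH, the first enzyme of serine synthesis, had 381 CPM under DRB, 276 CPM under ActD and 255 CPM under DMSO, and 51.6 CPM in untreated nascent and 63.5 CPM in total RNA. Its DRB ratio of 0.58 was within 2-fold and turned negative with mitochondrial genes in the total. SHMT2 at 0.09 and MTHFD2 at -0.09, which pass one-carbon units in mitochondria, did not differ by 2-fold.

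Among synthetases VARS had 101 CPM (485 counts) under DRB, 107 CPM (579 counts) under ActD and 36.4 CPM (284 counts) under DMSO, and 69.2 CPM in untreated nascent and 36.2 CPM in total RNA. Its DRB over DMSO ratio of 1.45 [1.26, 1.69] was the highest of the 32 genes measured, and both drugs gave nearly the same level. The DRB ratio of VARS passed 2-fold on 5 of the 6 scales. The lowest synthetase was FARSB, with 7.70 CPM (37 counts) under DRB, 25.9 CPM under ActD and 24.2 CPM (189 counts) under DMSO, at -1.54 [-2.20, -1.14], and 11.2 CPM in untreated nascent and 9.68 CPM in total RNA. Its partner subunit FARSA was also lower, at -1.03, as were the alanyl, methionyl and tyrosyl enzymes AARS at -1.32, MARS at -1.32 and YARS at -1.20. AARS had 130.0 CPM under DRB, 339 CPM under ActD and 327 CPM under DMSO, with 81.5 CPM in untreated nascent and 104 CPM in total RNA. All 5 kept their sign on the 6 scales, but 0 were lower by 2-fold on every one. After VARS the highest were HARS for histidine at 0.61 and LARS for leucine at 0.50, each within 2-fold and each negative with mitochondrial genes in the total. HARS had 196 CPM under DRB, 219 CPM under ActD and 128 CPM under DMSO, with 57.3 CPM in untreated nascent and 61.6 CPM in total RNA. LARS had 348 CPM under DRB, 308 CPM under ActD and 247 CPM under DMSO, with 155 CPM in untreated nascent RNA and 1889 counts in total RNA.

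**Figure D2:**
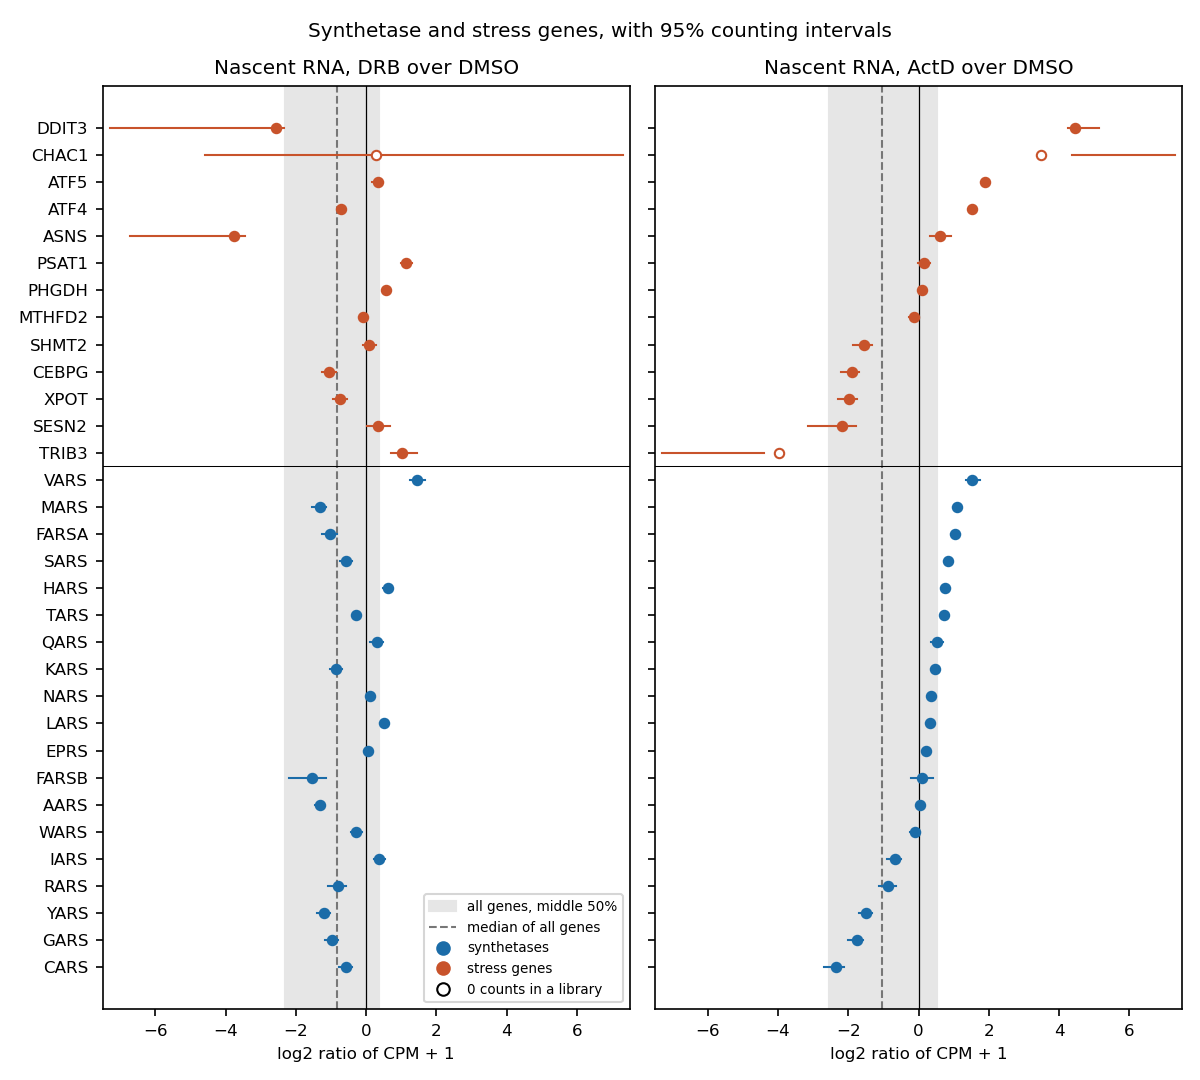
Log2 ratio of CPM + 1 for 19 synthetases and 13 stress genes under DRB over DMSO (left) and ActD over DMSO (right), with bars for the 95% interval of the ratio of counts, cut at the panel edge. The stress genes (orange) spread from -3.96 to 4.47 under ActD, against -2.34 to 1.52 for the synthetases (blue), and the grey band holds the middle 50% of all genes around a dashed median of -0.83 for DRB and -1.05 for ActD.

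Under ActD the stress genes spread widely in both directions and most synthetases stayed within 2-fold of DMSO. DDIT3, CHAC1, ATF5 and ATF4 were higher, while TRIB3, SESN2, XPOT, CEBPG and SHMT2 were lower. Of 13 stress genes 4 were higher, 5 lower and 4 within 2-fold. Of 20 synthetases 3 were higher, 3 lower and 14 within 2-fold. Among all 12788 genes tested the shares were 19.0% higher and 50.7% lower. After centring on the median gene 13 synthetases were higher and 1 lower, against 33.6% and 34.6% of all genes. The median log2 ratio was 0.26 for synthetases, 0.11 for stress genes and -1.05 for all genes. At a mean of 100 to 300 CPM all genes had a median of 0.01, and 10 synthetases there a median of 0.39. The order turned at 30 to 100 CPM, with medians of -0.77 for 6 synthetases, -0.70 for 6 stress genes and -0.18 for all genes. The middle 50% of the stress genes ran from -1.90 to 1.52, that of the synthetases from -0.42 to 0.73, and that of all genes from -2.55 to 0.52. The medians of synthetases and stress genes differed by 0.15, synthetases minus stress genes, with a counting interval of -0.04 to 0.43 that takes in both signs. The sign of each list median turned negative with mitochondrial genes in the total, at -0.06 for synthetases and -0.21 for stress genes.

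DDIT3 had a log2 ratio of 4.47 [4.25, 5.12], or 25.5-fold in CPM. Of the 1032 genes with 40 to 60 counts in DMSO, 10 (0.969%) had a log2 ratio of 4 or more under ActD. The 3′ end of DDIT3 overlaps that of MARS by 65 bases on the other strand (DDIT3 at chr12:57516588-57520517, MARS at chr12:57488068-57516652, GRCh38.p14), and another annotated gene, LOC128125814, shares 2769 bases of it on the same strand. Since use of strand in the counting was not given, reads in the shared bases cannot be told apart. CHAC1 had 10.1 CPM (55 counts) under ActD, 0.208 CPM (1 count) under DRB and 0 counts under DMSO, with 0.959 CPM in untreated nascent and 1.19 CPM in total RNA. Against a floor of 3 counts in the DMSO library it was at least 26.3-fold higher in ActD. Of 41979 genes with 0 counts in DMSO, 97.9% also had 0 counts under ActD, and 0.236% had 50 or more. ATF5, a relative of ATF4 that is also controlled at translation, had 364 CPM under ActD, 123 CPM under DRB and 98.0 CPM under DMSO, and 47.8 CPM in untreated nascent and 44.9 CPM in total RNA. Its ActD ratio was 1.88 [1.77, 2.01], and it overlaps IL4I1 and NUP62 by 599 bases, where reads could be shared. ATF4 itself stood at 1.52 [1.47, 1.57], with 2041 CPM (11092 counts) under ActD and 712 CPM under DMSO. These 4 genes were higher in ActD on each of the 6 scales.

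TRIB3 went the other way from the other ATF4 targets CHAC1 and DDIT3. Its 0 counts under ActD against 114 under DMSO put it at least 26.5-fold lower, taking 3 counts as the floor of the ActD library. Of the 2045 genes with 100 to 200 counts in DMSO 10.5% had 0 counts under ActD. SESN2, a leucine sensor that restrains mTORC1, had 4.05 CPM (22 counts) under ActD, 27.9 CPM under DRB and 21.9 CPM (171 counts) under DMSO, a ratio of -2.18 [-3.15, -1.79]. In untreated cells it had 9.11 CPM in nascent and 7.70 CPM in total RNA. TRIB3 and SESN2 were lower on each of the 6 scales. XPOT, the exporter of tRNA from the nucleus, had 24.7 CPM under ActD, 59.5 CPM under DRB and 100.0 CPM under DMSO, at -1.98, and 57.4 CPM in untreated nascent and 77.9 CPM in total RNA. CEBPG stood at -1.90 and SHMT2 at -1.56, both below DMSO in sign on all 6 scales. ASNS at 0.60, PSAT1 at 0.16, PHGDH at 0.11 and MTHFD2 at -0.14 were within 2-fold.

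The synthetases that were higher in ActD were VARS at 1.52 [1.34, 1.76], MARS at 1.10 [0.99, 1.22] and FARSA at 1.04 [0.91, 1.18]. MARS had 284 CPM under ActD, 52.2 CPM under DRB and 132 CPM under DMSO, and 70.6 CPM in untreated nascent and 86.8 CPM in total RNA. FARSA had 207 CPM under ActD, 48.5 CPM under DRB and 100.1 CPM under DMSO, and 71.6 CPM in untreated nascent and 85.7 CPM in total RNA. Of these VARS alone was higher by 2-fold on all 6 scales. FARSA overlaps FARSA-AS1 on the other strand by 2775 bases and MARS overlaps ARHGAP9 by 757 bases, where reads could be shared. CARS for cysteine was lowest, with 21.7 CPM (118 counts) under ActD, 75.5 CPM under DRB and 114 CPM (887 counts) under DMSO, at -2.34 [-2.68, -2.11], and it was lower on all 6. In untreated cells it had 24.8 CPM in nascent and 37.2 CPM in total RNA. GARS for glycine had 40.1 CPM under ActD, 69.7 CPM under DRB and 138 CPM under DMSO, at -1.76, with 63.8 CPM in untreated nascent and 106 CPM in total RNA. YARS had 56.8 CPM under ActD, 70.1 CPM under DRB and 162 CPM under DMSO, at -1.50, with 80.9 CPM in untreated nascent and 108 CPM in total RNA. Both were below DMSO in sign on all 6 scales. TARS for threonine was the most abundant synthetase under ActD, with 494 CPM against 301 CPM in DMSO, at 0.72. The other 13 synthetases lay between -0.86 for RARS, the arginine enzyme, and 0.83 for SARS, the serine enzyme, and 8 of the 20 changed sign between scales.

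A set of 8 synthetases, EPRS, LARS and MARS among them, forms a large complex with the scaffold proteins AIMP1, AIMP2 and EEF1E1. That grouping was made after the values were seen. Under ActD 1 of these 8 was higher and 0 lower, with ratios from -0.86 to 1.10, and of the other 12 synthetases 2 were higher and 3 lower, from -2.34 to 1.52. The medians were 0.26 and 0.22. Under DRB the medians were 0.17 for the 8 and -0.58 for the other 12. The scaffold genes are 3. Under ActD AIMP1 at -2.32, AIMP2 at -2.02 and EEF1E1 at -2.42 were all lower, and under DRB AIMP2 at -2.22 and EEF1E1 at -1.59 were lower while AIMP1 at -0.27 was not, where 50.7% of all genes were lower under ActD and 47.0% under DRB. The 6 synthetases with the core had a median of 0.20 under ActD, from -2.34 to 1.10, and the 10 without it 0.33, from -1.76 to 1.04.

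ActD and DRB were also set directly against each other. Of 13 stress genes 5 were higher and 4 lower in ActD than in DRB, and of 20 synthetases 6 were higher and 2 lower. Among all 10859 genes tested the shares were 34.2% higher and 36.3% lower. DDIT3 had the widest gap at 7.03 [7.08, 14.87], from 854 counts in ActD and 1 count in DRB, followed by ASNS at 4.37 [4.09, 7.36], CHAC1 at 3.20, ATF4 at 2.23 and ATF5 at 1.56. TRIB3 was at least 55.8-fold lower in ActD, and SESN2 stood at -2.52, SHMT2 at -1.65 and XPOT at -1.24. The synthetases higher in ActD were MARS at 2.42, FARSA at 2.07, FARSB at 1.63, SARS for serine at 1.40, AARS at 1.38 and KARS for lysine at 1.32. CARS at -1.75 and IARS for isoleucine at -1.05 were lower. The list medians were 0.17 for synthetases and -0.46 for stress genes, a difference of 0.63, while the median of all genes was -0.09. A change of library scale moves both lists nearly alike, so it cannot test this difference. The 5 stress genes and 6 synthetases called higher were so on all 6 scales, and of the calls lower, XPOT and IARS were not.

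Gene length went with the ActD ratios of the members. The synthetases span 8.83 to 89.2 kb with a median of 35.0 kb, and the stress genes 2.13 to 76.8 kb with a median of 16.8 kb. The 76.8 kb is that of ASNS, whose gene model reaches to chr7:97928441, beyond the start at chr7:97872408 used for its promoter. The part of this in the values below was not tested. CZ1P-ASNS shares 76325 bases with that model on the same strand, where reads could be shared. Under ActD the 4 stress genes called higher all span less than 10 kb: ATF4, CHAC1, DDIT3 and ATF5. CEBPG and SHMT2 are as short and were lower. Spearman's rho of the ActD over DMSO log2 ratio with span was -0.67 over 20 synthetases, -0.48 over 13 stress genes and -0.12 over 11597 genes, as descriptions across genes of the same libraries. Over all genes the median ratio was -0.56 for spans under 10 kb, -1.02 for 10 to 50 kb and -1.24 for longer ones. Under DRB rho was -0.11 for synthetases, 0.10 for 12 stress genes and 0.19 for 11727 genes.

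**Figure D3:**
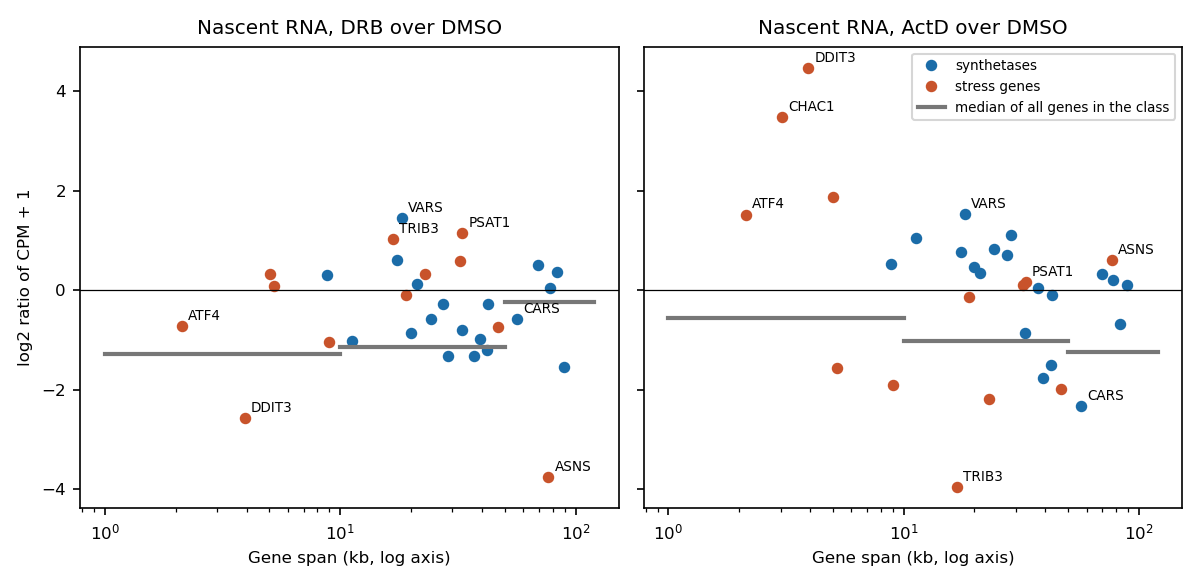
Log2 ratio of CPM + 1 of 19 synthetases and the stress genes against gene span on a log axis for DRB over DMSO (left) and ActD over DMSO (right), with the median of all genes in 3 span classes as grey lines. Under ActD the short genes DDIT3, CHAC1, ATF4 and ATF5 lie at the top, while CARS at 56.5 kb and TRIB3 at 16.8 kb lie lowest in their lists.

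Other genes of the pathway are read against the shares over all genes, 47.0% lower and 15.6% higher under DRB and 50.7% lower and 19.0% higher under ActD. Of 16 genes of the eIF2 pathway 6 were lower and 0 higher under DRB (median -0.40), and 7 were lower and 1 higher under ActD (median -0.84). The one higher was PPP1R15A, the stress-induced subunit of an eIF2 phosphatase, with 1324 CPM (7196 counts) under ActD and 110 CPM (855 counts) under DMSO, at 3.58. EIF2AK3, the eIF2 kinase of the endoplasmic reticulum, had 1.47 CPM (8 counts) under ActD and 48.7 CPM (380 counts) under DMSO, at -4.33. NCK1, an adaptor, had 0 counts under ActD and 227 under DMSO, at least 52.7-fold lower, and EIF2S1, the subunit of eIF2 that is phosphorylated, was second highest at 0.84. Under DRB PPP1R15B, the constitutive counterpart of PPP1R15A, was lowest at -4.62, from 12 counts against 663 in DMSO, followed by NCK1 at -3.74, and IMPACT at 0.98 and EIF2B5 at 0.61 were highest. Of 31 other ATF4 targets, 24 were measured under DRB, with 0 higher and 12 lower, and 26 under ActD, with 8 higher and 10 lower. CTH, which makes cysteine, was highest under ActD with 23.7 CPM (129 counts) against 1.54 CPM (12 counts) in DMSO, at 3.28, and CEBPB, a C/EBP factor, followed at 2.44. ATG5, of autophagy, had 0 counts under ActD and 127 under DMSO, at least 29.5-fold lower, and GADD45A, a growth arrest gene, stood at -3.15. Under DRB the serine enzyme PSPH at -4.15 and the autophagy receptor SQSTM1 at -4.09 were lowest, and the proline enzyme PYCR1 at 0.95 and CTH at 0.77 highest. Of the 17 mitochondrial synthetases, under DRB 8 were lower and 1 higher (median -0.95), and under ActD 10 were lower and 5 higher (median -2.17). Under ActD MARS2 at 2.32 and IARS2 at 1.43 stood highest, and PARS2 at -4.20, from 1 count against 162 in DMSO, and RARS2 at -4.06 lowest. Under DRB IARS2 at 1.04 and LARS2 at 0.81 stood highest, YARS2 at -4.48 was lowest, and PARS2 had 0 counts against 162 in DMSO, at least 33.3-fold lower.

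At chromatin, all 33 members had an acH2A.Z peak over or within 1 kb of the gene in DMSO, against 89.4% of 10683 protein-coding genes with at least 1 CPM in DMSO. Under DRB 32 had one (94.6% of those genes) and MARS had none. Under ActD 31 had one (85.7%) and TRIB3 and CHAC1 had none. TRIB3 thus lacked both the peak and RNA under ActD, while CHAC1 lacked the peak under ActD, where its RNA was highest. Tags of a peak are the authors' normalized values, and a gene's start tags are the sum over peaks that touch the kilobase on each side of its start. These could be read for 28 members, of which 27 had a start peak under DRB (89.2% of expressed genes), 24 under ActD (79.2%) and 28 under DMSO (84.0%).

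At the ATF4 start the tags were 432 under DRB, 775 under ActD and 2264 under DMSO, where the peak spans chr22:39517820-39523250. At the DDIT3 start they were 126 under DRB, 518 under ActD and 1001 under DMSO, so both inducible factors carried fewer acH2A.Z tags under ActD than under DMSO while their RNA was higher. TARS had the most tags of all members under ActD and DMSO, with 1004 under DRB, 4349 under ActD and 4794 under DMSO. ASNS had 315 under DRB, 188 under ActD and 917 under DMSO, and PSAT1 had 581 under DRB, 37.6 under ActD and 974 under DMSO. FARSB alone of the synthetases with peaks in all 3 lists had more tags under both drugs, with 1084 under DRB, 1101 under ActD and 924 under DMSO.

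Tags were fewer under either drug at most members. The acH2A.Z lists held 29432 peaks under DRB, 31240 under ActD and 17007 under DMSO, with median tags of 87.7, 24.6 and 161. The part of this difference in the ratios was not tested. Among genes with a start peak in both lists, the DRB over DMSO log2 ratio of tags was below 0 for 14 of 15 synthetases, with a median of -1.72, and for 12 of 12 stress genes, with a median of -1.56. For expressed protein-coding genes (7347 with both peaks) the median was -0.81. For ActD over DMSO the medians were -1.16 for 15 synthetases, -2.29 for 9 stress genes and -0.64 for 6772 genes. The ratio moved with the DMSO level. Among genes with 1000 or more tags in DMSO the DRB medians were -2.25 for 9 synthetases, -2.39 for 3 stress genes and -1.58 for 1738 genes, and the ActD medians were -1.24 for 9 synthetases, -1.55 for 3 stress genes and -0.37 for 1737 genes. At 500 to 1000 tags the order of synthetases and all genes turned under DRB, with medians of -0.85 for 5 synthetases, -1.41 for 6 stress genes and -1.08 for 1976 genes. There the ActD medians were -0.70 for 5 synthetases, -2.09 for 4 stress genes and -0.71 for 1972 genes. ActD against DRB gave 0.51 for 14 synthetases, -0.42 for 9 stress genes and 0.06 for 6920 genes. The start peak was lost under ActD at 1 of 16 synthetases (QARS) and at 3 of 12 stress genes (TRIB3, CHAC1 and PHGDH), against 9.11% of genes. Under DRB it was lost at MARS, against 1.40% of genes.

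**Figure D4:**
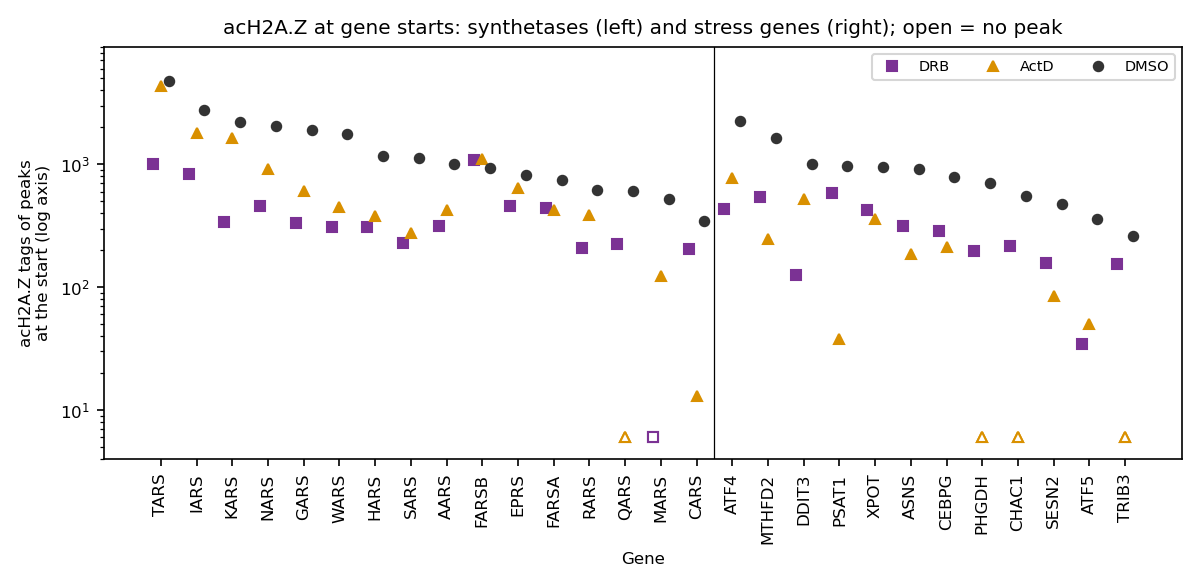
acH2A.Z tags of the peaks at the start of 28 genes on a log axis, under DRB (squares), ActD (triangles) and DMSO (circles), with open symbols at the bottom where no peak was called. DMSO lies above both drugs at every gene but FARSB, and DRB lies below ActD at TARS, KARS and DDIT3 but above it at PSAT1 and MTHFD2.

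With siMyc, acH2A.Z peaks lay at 26 members (57.9% of expressed genes), 18 of 20 synthetases and 8 of 13 stress genes, and with siNTC at 30 (91.3%), 19 synthetases and 11 stress genes. Without a peak in siMyc were VARS, WARS, ATF4, DDIT3, TRIB3, ASNS and SHMT2, of which TRIB3 had none in siNTC either. In siNTC IARS, TRIB3 and SESN2 had none. In siMyc the members' share was near that of expressed genes at a fold over control of at least 8, with 6 of 33 members (17.4%), and below it over the gene body alone, with 13 of 33 (42.3%). ATF4 had 554 start tags in siNTC, DDIT3 had 211 and ASNS 363. The siNTC start peak was lost in siMyc at 2 of 15 synthetases, 4 of 10 stress genes and 46.3% of 7596 expressed genes. Where both lists had a start peak, the siMyc over siNTC ratio of tags had a median of -1.63 for 13 synthetases, -3.37 for 6 stress genes and -3.01 for 4081 genes. The siNTC level went with it: at 50 to 150 tags the median was -1.41 for 8 synthetases and -1.31 for 827 genes, and at 300 tags or more -3.42 for 3 synthetases, -3.38 for 3 stress genes and -4.34 for 1695 genes. The siMyc list scaled its control to the immunoprecipitation and the siNTC list did the reverse, and the part of this in the ratio was not tested.

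Peaks of H2A.Z itself were called at few members. The H2A.Z lists held 4191 peaks under DRB, 17888 under ActD and 1271 under DMSO, 11180 with siMyc and 6956 with siNTC. The acH2A.Z list of DMSO held 17007. As acH2A.Z is itself H2A.Z, a member without an H2A.Z peak cannot be read as lacking H2A.Z. H2A.Z peaks lay at 9 members under DRB (24.5% of expressed genes), 5 under ActD (21.9%) and 6 under DMSO (11.7%). They lay at 9 with siMyc (30.1%) and 4 with siNTC (19.8%). In DMSO the 6 were FARSA, IARS, KARS, TARS, ATF4 and ASNS, with ATF4 highest at 187 start tags and TARS next at 63.5. DDIT3 had an H2A.Z peak at its start under both drugs, with 45.6 tags under DRB and 9.41 under ActD, and none in DMSO. The median peak held 16.9 tags under DRB, 6.57 under ActD and 25.9 under DMSO, and lists of such unlike length show no gain by themselves. Of expressed genes 20.7% had a start peak under DRB and 10.8% under DMSO. DDIT3 was the sole member with a start peak under ActD (7.65% of expressed genes), and with siNTC RARS and ASNS had one (13.2%).

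In RIP the lists parted most for H2A.Z. Its peaks lay over 19 of 20 synthetases and 6 of 13 stress genes, 25 members in all, against 71.0% of expressed genes. For acH2A.Z the counts were 17 and 10, 27 in all (83.6%), and for Tip60 18 and 11, 29 in all (86.8%). Without an H2A.Z RIP peak were QARS, ATF4, ATF5, DDIT3, TRIB3, CHAC1, SHMT2 and XPOT. Longer genes offer more room for a peak. Of expressed genes under 10 kb 31.4% had an H2A.Z RIP peak, of those of 10 to 50 kb 69.1%, and of 3772 longer ones 3584. In the class of 10 to 50 kb it lay over 13 of 13 synthetases and 4 of 6 stress genes, and among the 6 shortest stress genes over 1. ATF5 and DDIT3 had no peak in any of the 3 RIP lists. RIP peaks were low, with at most 15.9 tags at a member's start, and few lay at starts: of 28 members 5 had one for H2A.Z (10.7% of expressed genes), 13 for acH2A.Z (36.1%) and 9 for Tip60 (30.1%). The highest sums over a gene were 127 tags in 3 acH2A.Z peaks over IARS, 115 in 8 Tip60 peaks over YARS and 112 in 9 Tip60 peaks over IARS. The annotated small RNA genes SNORA84 and MIR3651 lie within IARS, where RIP reads could be shared. The RIP libraries with control antibodies were not analysed here.

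**Figure D5:**
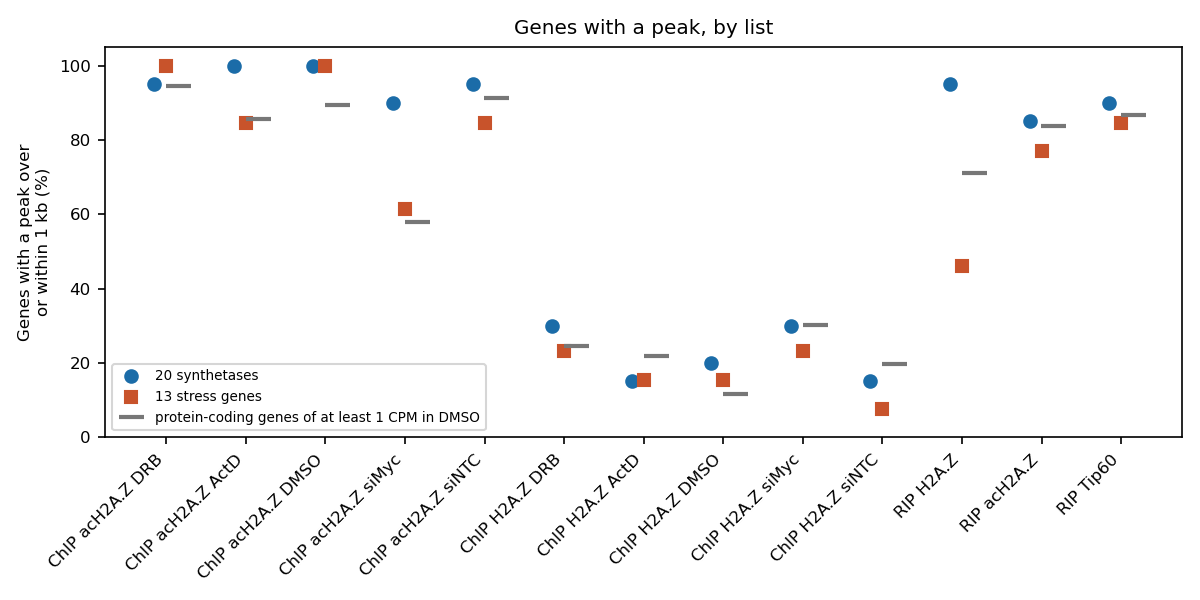
Share of 20 synthetases (circles), 13 stress genes (squares) and 10683 protein-coding genes of at least 1 CPM in DMSO (grey lines) with a peak over or within 1 kb in each of 13 lists. The lists part furthest in H2A.Z RIP, with 19 of 20 synthetases and 6 of 13 stress genes, and in acH2A.Z with siMyc, with 18 and 8.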

How the data were processed

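Members, lists and subgroups were chosen with earlier results of these data known, and motif and peak windows likewise. Per the submitters' processing notes the build was GRCh38 and the tools included Trim Galore, cutadapt, FastQC, STAR 2.5.2b and HOMER. The sources used here do not name the quantifier, the annotation or a use of strand. The authors deposited expected counts per gene in 8 gene tables (5 of RNA, 3 of input DNA), of which some pack their values, other numbers included, into 1 field per the file headers. These values were split again, and rounding of expected counts served the intervals alone. HOMER wrote the 13 peak lists, 1 per library per the file headers. Each peak carries a deposited tag signal, a score, a p-value and a fold against control. In the deposited lists the fold over control is at least 4 and the p-value at most 0.0001. The deposited headers do not name the control library. In 10 lists the immunoprecipitation was scaled to the control and in 3 the control to the immunoprecipitation. The scale of the deposited tag signal was assumed to be HOMER's default.

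Levels were CPM over genes not encoded in mitochondria. Genes that averaged 1 CPM or more and summed to 20 counts or more in the libraries compared were tested for a 2-fold difference after adding 1 CPM. Floors of 3 counts stood at 0.624 CPM under DRB, 0.552 CPM under ActD and 0.385 CPM under DMSO. Exact (Clopper-Pearson) 95% intervals and floors reflect counting alone, because PCR copies without molecular identifiers are counted as separate reads. The steps were tested on simulated data. Input DNA held 5 to 125 summed counts per member (median 38), too few for an estimate of copies. Old symbols were matched by Ensembl ID to RefSeq names, for 33 of 33 members. Named genes were ATF4, DDIT3, ASNS, CHAC1, TRIB3, SESN2, the 3 highest and 3 lowest of each list per drug and, for other lists, the 2 highest and 2 lowest; further members are named to account for every call and peak. Python 3.11.15, pandas 2.3.3, scipy 1.17.1, R 4.3.3 and edgeR 4.0.16 (for TMM factors alone) were used. Alternatives were 5 other library scales, a pseudocount of 0.5 CPM, no filter, a fold over control of at least 8, the gene body alone and the start alone. Values of 1 synthetase are not reported here singly, though it is in the counts and medians. With 1 library per group no replicate could be left out.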

Additional observations from a re-analysis of the deposited data

How the results depend on the processing

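Over 130 alternative values 100 stayed within the counting interval or within 1.5 times the count. The difference of the list medians did so under each alternative in all 5 RNA comparisons. A library scale shifts both list medians by nearly the same amount, so the scales could hardly move this difference and do not test it. Those values are nevertheless counted among the 100. The counts of calls moved with the library scale; the pseudocount of 0.5 CPM, no filter and leaving out RNA polymerase III genes moved none past 1.5 times. For DRB against DMSO, with mitochondrial genes in the total, 10 synthetases were lower and 0 higher, and 5 stress genes lower and 0 higher. After centring on the median gene 0 synthetases were lower and 6 higher, and 5 stress genes were higher. With TMM scaling 1 synthetase was lower and 3 higher, and with median-of-ratios size factors 0 and 3. For ActD against DMSO, mitochondrial genes in the total left 1 synthetase higher. Centring gave 1 synthetase lower and 13 higher, and 2 stress genes lower and 7 higher. TMM scaling gave 8 synthetases higher and size factors 10. The median gene under DRB stood at -1.32 with mitochondrial genes in the total, -0.34 with TMM and -0.26 with size factors, and under ActD at -1.17, -0.50 and -0.40. Each scaling fixes only a ratio within a library, and no spike-in was used here.

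For peaks, a fold over control of at least 8 left 6 of 33 members with an acH2A.Z peak in siMyc (17.4% of expressed genes) and 16 in siNTC (54.4%), and 3 with an H2A.Z peak in ActD (15.5%), 3 in siMyc (6.71%) and 2 in siNTC (4.11%). Over the gene body alone 13 members had an acH2A.Z peak (42.3%) and 3 an H2A.Z peak (22.8%) in siMyc, so the members' higher share of acH2A.Z peaks in siMyc shrank to near that of expressed genes under the first setting and fell below it under this one. At the start alone 1 had an H2A.Z peak in ActD, 2 in siNTC, and 5 had an H2A.Z, 13 an acH2A.Z and 9 a Tip60 peak in RIP. No paired analysis was possible because each group has 1 library. Single libraries and few counts limit the lowest genes most, CHAC1, DDIT3, TRIB3, SESN2 and ASNS among them.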
